A study of Homo sapiens with 16 samples.

Results

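The 41 genes described here are serum response factor (SRF), its cofactors MRTFA and MRTFB, and genes of the contractile apparatus and actin cytoskeleton linked to it. They were listed by name, with earlier results of these data known but with no threshold on a measured value, and they make up 41 of the 20033 protein-coding genes of GENCODE release 44. The histone mark H3K27ac, found at active promoters and enhancers, was profiled with ChIP-seq (sequencing of immunoprecipitated chromatin) in LX-2, an established line of human hepatic stellate cells that behave as myofibroblasts. Control cells received vehicle, and treated cells received 50 µM OSMI-1 for 24 h. OSMI-1, called OGTi below, blocks OGT (O-GlcNAc transferase), which attaches the sugar O-GlcNAc to nuclear and cytoplasmic proteins. Each arm had 4 H3K27ac libraries from independent experiments, all on this 1 cell line. Of the other 8 of the 16 samples, the ChIP-seq inputs (2 per arm) served the authors as the control for peak calling. Column purified chromatin and its inputs were not used here. The data are positions of regions that lost H3K27ac under OGTi (3507) or gained it (3623), so a fold change, a replicate spread or a depth cannot be given for any region below. Unchanged regions were not analysed here, and a gene without a listed region may hold unchanged H3K27ac or no H3K27ac at all, which cannot be told apart.

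SRF binds DNA at the CArG box, a run of 10 letters with CC, then 6 letters that are each A or T, then GG. Monomeric actin holds the MRTF cofactors in the cytoplasm, and when actin polymerises they enter the nucleus and activate SRF at genes of actin, myosin and their binding partners. In the liver this programme is known from stellate cells that become myofibroblasts, which build contractile stress fibres. A region was placed at a gene when its centre lay in the gene body or any of its bases lay within 2500 bp of the gene's 5′ end.

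Lost regions held 25 CArG boxes, in 16 of the 41 genes, and 13 of them lay within 500 bp of a gene's 5′ end or canonical transcript start. These 13 are shown because they match the letters that SRF is known to bind and because they lie inside regions that lost H3K27ac. Binding of SRF to them was not measured here. Each is printed with 10 bases on either side, on the strand of the gene, from hg38, and capitals mark the CArG box. The position of the printed stretch follows each gene name.
SRF at chr6:43171229-43171258: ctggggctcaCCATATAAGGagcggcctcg
SRF at chr6:43171249-43171278: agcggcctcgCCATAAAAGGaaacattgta
TAGLN at chr11:117199077-117199106: agggtcctgtCCATAAAAGGcttttcccgg
TAGLN at chr11:117199204-117199233: gtgtctttccCCAAATATGGagcctgtgtg
MYL9 at chr20:36541375-36541404: tgggtcgaggCCAAATAAGGccggacggca
CALD1 at chr7:134779327-134779356: ctaaggataaCCAAAAAAGGgcatggagca
CNN2 at chr19:1026509-1026538: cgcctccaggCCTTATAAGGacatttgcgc
FHL2 at chr2:105399091-105399120: gcgtgcatctCCTTATATGGtcaaatgaca
EGR1 at chr5:138465051-138465080: cccggaaatgCCATATAAGGagcaggaagg
EGR1 at chr5:138465089-138465118: ccggaacaacCCTTATTTGGgcagcacctt
EGR1 at chr5:138465105-138465134: ttgggcagcaCCTTATTTGGagtggcccga
EGR1 at chr5:138465364-138465393: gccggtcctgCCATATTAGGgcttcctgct
EGR1 at chr5:138465386-138465415: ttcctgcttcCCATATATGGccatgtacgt

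Of the promoters inside a lost region, those of SRF and EGR1 are shown at length, since each has 2 CArG boxes before its start in the RefSeq promoter window. The 250 bases before each start are printed (build GRCh38.p14), again with CArG boxes in capitals, because the lost region covers every base shown. In SRF the last CArG box ends at the base before the start, and in EGR1 the 2 boxes nearest to the start lie in the downstream part of the window.
SRF at chr6:43171019-43171268: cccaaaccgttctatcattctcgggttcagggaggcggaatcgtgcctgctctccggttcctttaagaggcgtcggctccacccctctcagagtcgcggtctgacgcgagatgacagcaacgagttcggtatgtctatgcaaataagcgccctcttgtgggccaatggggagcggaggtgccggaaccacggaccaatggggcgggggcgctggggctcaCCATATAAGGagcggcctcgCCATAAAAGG
EGR1 at chr5:138465229-138465478: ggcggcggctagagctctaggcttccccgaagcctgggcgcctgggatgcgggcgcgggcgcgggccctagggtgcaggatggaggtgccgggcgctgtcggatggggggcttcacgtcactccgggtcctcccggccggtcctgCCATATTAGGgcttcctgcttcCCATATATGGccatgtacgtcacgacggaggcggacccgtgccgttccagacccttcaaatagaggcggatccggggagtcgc

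Across the set, loss of H3K27ac was far more frequent than gain. Lost regions lay at 25 of the 41 genes (61.0%), whereas 6.63% of the other protein-coding genes had a lost region. Gained regions lay at 4 of the 41 (9.76%), close to the 11.1% of the other protein-coding genes. Counted as regions, 54 lost and 7 gained regions were at these genes, so that 88.5% were losses, whereas the other protein-coding genes held 1921 lost and 2689 gained regions (41.7% losses). Each of the regions at the 41 genes lay at a single gene of the set. Several lost regions abut, because the authors' procedure cuts wide peaks into bins of about 2000 bp, and joining them left 42 lost and 6 gained blocks. There were 13 genes with 2 or more lost regions (31.7%, against 2.04% of other genes), counted before joining. In TAGLN, TAGLN2, CNN2 and PDLIM7 these regions all abut as a single block. Shares after joining are not given.

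The loss also reached the starts of the genes. A lost region lay within 2500 bp of the 5′ end in 14 of the 41 genes (34.1%), and the share among other protein-coding genes was 1.89%. In 12 of the 14, the lost region covered the 5′ end itself: SRF, TAGLN, MYL9, MYLK, TPM1, LMOD1, TAGLN2, MYL6, CNN2, ZYX, PDLIM7 and EGR1. In CALD1 and FHL2 it lay 665 bp and 9 bp away. A gained region came that near in 1 gene (2.44%), CORO1C, whereas 6.40% of the other protein-coding genes had such a gain. The annotated 5′ end can belong to a minor transcript, and at the start of the Ensembl canonical transcript the counts were 17 genes with a loss (41.5%, against 1.91%) and 1 with a gain (2.44%, against 6.64%), the added genes being ACTA2, ACTG1 and TPM4. None of the 18 lost regions near these 5′ ends was within 2500 bp of the 5′ end of another protein-coding gene.

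**Figure D1:**
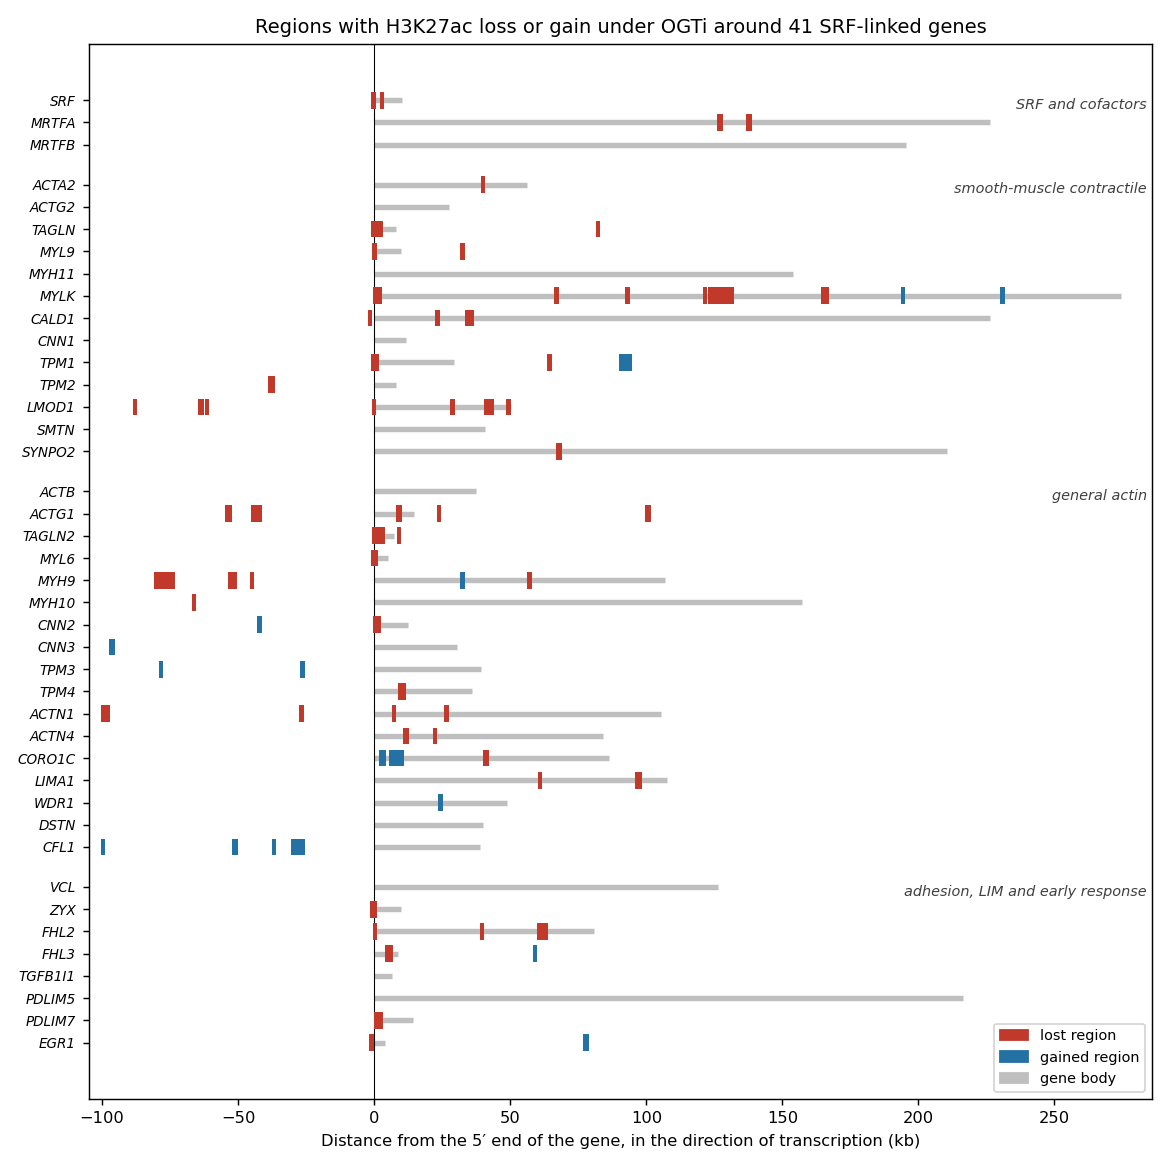
Positions of lost (red) and gained (blue) regions around the 41 genes, in kb from the 5′ end in the direction of transcription, 1 row per gene in 4 groups, with the gene body in grey and regions under 1.5 kb drawn at 1.5 kb. Red marks sit on the vertical line of the 5′ end in 13 genes, of which FHL2 reaches it through the drawn width, no blue mark does, and 10 rows carry no region.

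The map of regions by gene shows where these losses fall along each gene, and 10 of its rows are empty. The threshold of 2500 bp separated neighbours by small distances. Just inside it were the lost region of PDLIM7 at 1343 bp and the gained region of CORO1C at 1864 bp, and just outside it were lost regions of SRF at 2588 bp and of TAGLN2 at 2669 bp, which were counted through the gene body.

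SRF and its cofactor MRTFA both lost H3K27ac. SRF, on chromosome 6, had a lost region of 1538 bp over its start (chr6:43170219-43171756), with the CArG boxes printed above, and another of 848 bp in intron 2 (chr6:43173857-43174704). The intron 2 region holds a further CArG box. MRTFA, an actin-sensing cofactor of SRF, had 2 lost regions in intron 3 of its canonical transcript, at chr22:40508711-40510929 and chr22:40497846-40500105, with edges 126 and 137 kb from the 5′ end. The region at 137 kb holds a CArG box. MRTFB, its close relative, had no listed region at the gene or within 100 kb. No gained region lay at any of these 3 genes.

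Among the 13 smooth-muscle contractile genes, 8 had a lost region (61.5%) and 1 had a gained region (7.69%). ACTA2 encodes smooth-muscle α-actin, the usual marker of myofibroblasts. Its single lost region (chr10:88950971-88951957, 987 bp) lay in intron 1, 816 bp downstream of the canonical start. That region is also 1856 bp from the 5′ end of FAS, a gene that starts beside ACTA2. The stretch of it around its CArG box is shown because the box lies in the gene rather than before it.
ACTA2 at chr10:88951652-88951681: gcgtgttttaCCTAATTAGGaaatgctttg

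TAGLN, the actin-binding protein transgelin, had a continuous lost block of 4329 bp (chr11:117198090-117202418) made of 2 regions, which ran from upstream of the start into intron 1. The CArG boxes of TAGLN printed above lie 279 and 152 bp before its start. MYL9, a regulatory light chain of myosin, had 1 lost region over its start (chr20:36540540-36542500, 1961 bp). TPM1, a tropomyosin that lies along the actin filament, had 1 lost region of 2869 bp over its start (chr15:63041603-63044471), in which no CArG box was found.

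MYLK, the kinase that phosphorylates myosin light chain and so triggers contraction, had the most lost regions of the set. It had 10, and 7 of the 20033 protein-coding genes had at least as many. The MYLK gene is long (274 kb), and its density was 3.65 lost regions per 100 kb. One region of 3523 bp covered the start (chr3:123881395-123884917), and 5 abutting regions in intron 4 formed a block of 9441 bp (chr3:123752257-123761697) centred 127 kb inside the gene. MYLK also had 2 gained regions, in introns 19 and 24 (chr3:123689181-123690787 and chr3:123652600-123654351), both further along the gene than any of its lost regions. No CArG box was found in the listed regions of MYLK.

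LMOD1, a leiomodin that nucleates actin filaments in smooth muscle, had 5 lost regions within 50.1 kb of gene, or 9.98 per 100 kb. They covered its start (chr1:201946135-201947366), 2 places in intron 1 and its last exon (chr1:201896207-201898032). The intron 1 regions at chr1:201916870-201918806 and chr1:201904759-201906009 hold a CArG box each. CALD1, caldesmon, which restrains actomyosin, had 4 lost regions. The region at chr7:134741990-134743587 lay beside its 5′ end, and the 2 abutting regions of chr7:134777703-134781081 spanned the canonical start 35382 bp further along. A region in between (chr7:134766461-134768401) was also lost. SYNPO2, the actin-binding synaptopodin 2, had 1 lost region in intron 1 (chr4:118917470-118919680), with a CArG box, 66.8 kb from its 5′ end.

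The other 5 smooth-muscle genes had no region at the gene: ACTG2 (enteric γ-actin), MYH11 (smooth-muscle myosin heavy chain), CNN1 (calponin), SMTN (smoothelin) and TPM2 (β-tropomyosin). Only TPM2 of these 5 had a listed region within 100 kb, a loss 36.5 kb upstream that was nearer to the start of TLN1.

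**Figure D2:**
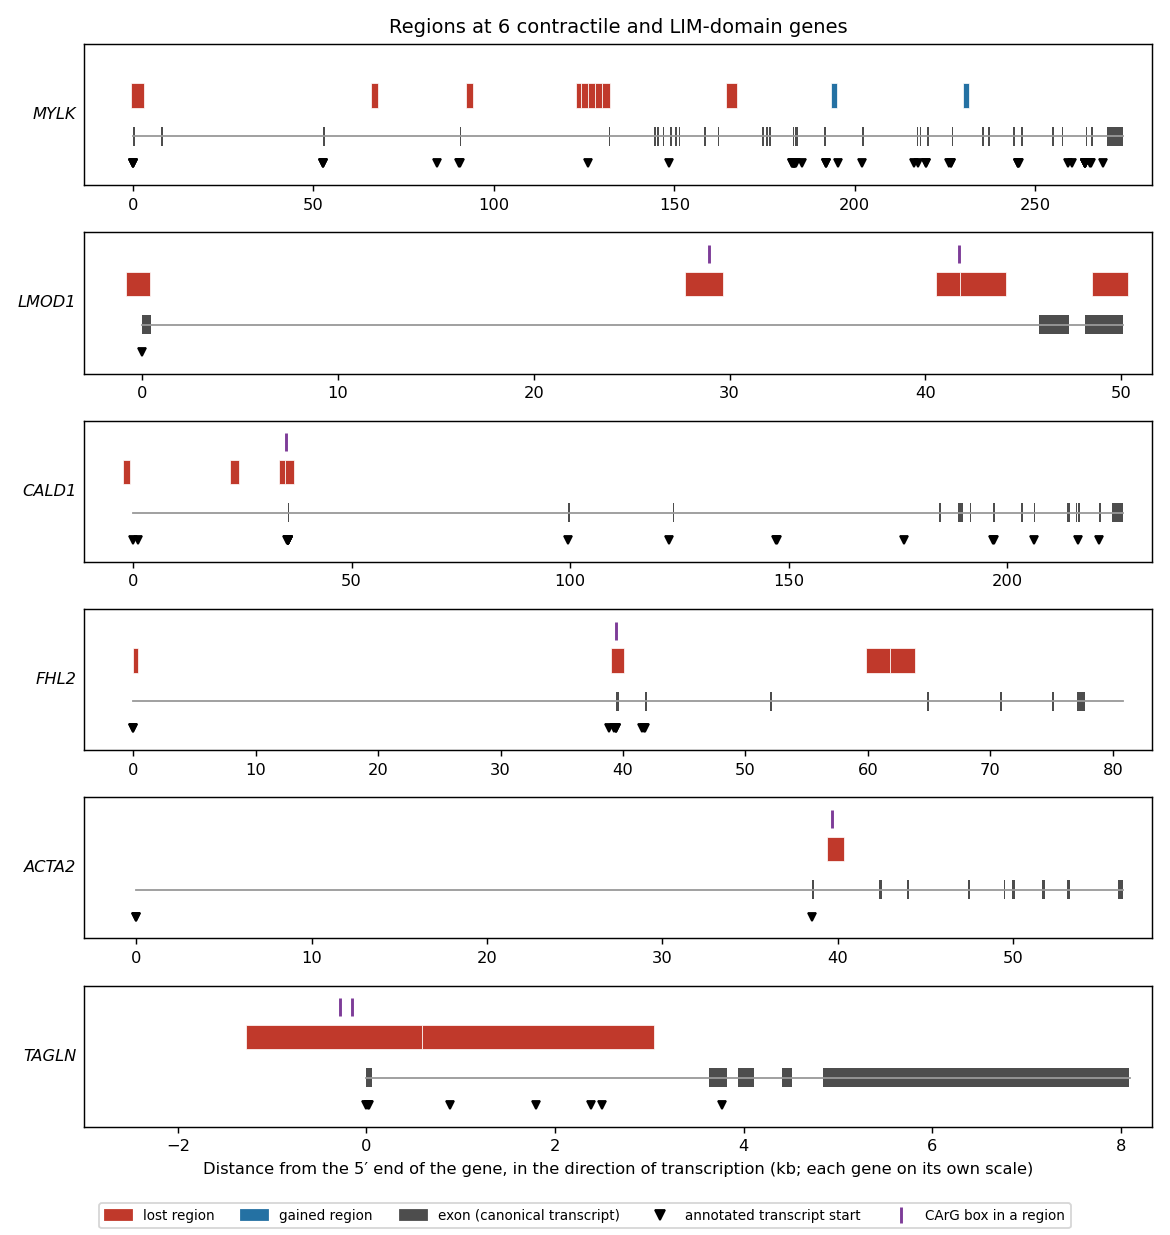
Lost (red) and gained (blue) regions of MYLK, LMOD1, CALD1, FHL2, ACTA2 and TAGLN against exons of the canonical transcript (dark boxes), annotated transcript starts (triangles) and CArG boxes in regions (purple), in kb from the 5′ end with a scale for each gene. The 5 abutting lost regions of MYLK stand near 127 kb, and the ACTA2 loss lies just after its canonical start. CALD1 and FHL2 have losses beside or over both their 5′ end and their canonical start. Several starts further along CALD1 carry none.

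The drawing of 6 loci shows that lost regions were found at more than 1 start of CALD1 and of FHL2, and deep inside MYLK, LMOD1 and FHL2.

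Among the 17 general actin genes, which most cells use, 10 had a lost region (58.8%) and 3 had a gained region (17.6%). The cytoplasmic actins differed from each other in their listings. ACTG1, cytoplasmic γ-actin, had a lost region 775 bp upstream of its canonical start (chr17:81513574-81515843, 2270 bp), whereas ACTB, cytoplasmic β-actin, had no listed region within 100 kb, and the nearest loss was 127 kb away. The ACTG1 region holds a CArG box.

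TAGLN2, the transgelin of non-muscle cells, had 3 abutting lost regions (chr1:159921686-159926347, 4662 bp) in a gene of 7.40 kb, beginning upstream of the start. CNN2, a calponin of non-muscle cells, had 2 abutting lost regions over its start and intron 1 (chr19:1026032-1029218, 3187 bp). MYL6, the essential light chain of myosin, had 1 lost region of 2474 bp over its start (chr12:56157331-56159804). TPM4, a non-muscle tropomyosin, had 1 over its canonical start (chr19:16075821-16078702), 9474 bp along from its annotated 5′ end.

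Other general genes lost H3K27ac more than 2500 bp from their 5′ end and canonical start. The filament cross-linkers ACTN1 and ACTN4 (α-actinins) had 2 lost regions each, all in intron 1. In ACTN1 these lay at chr14:68971771-68972628, which covers an internal transcript start, and chr14:68951982-68953632. In ACTN4 they lay at chr19:38658345-38660344 and chr19:38669296-38670343. LIMA1, which bundles filaments, had 2, at chr12:50221941-50223101 in intron 3, over an internal transcript start, and chr12:50185162-50187862 in intron 9. MYH9, a heavy chain of non-muscle myosin II, had a lost region in intron 3 (chr22:36329868-36331867), 916 bp from an internal transcript start, and a gained region in intron 1 (chr22:36354552-36356309). CArG boxes were found in both of these, 2 in the lost and 1 in the gained region.

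CORO1C, a coronin that binds actin filaments, was the gene of the set with the most gained regions. It had 3, all in intron 1 (chr12:108727055-108729662 and the block chr12:108720740-108726170), and 1 lost region in intron 2 (chr12:108689416-108691547). WDR1, which helps cofilin take filaments apart, had 1 gained region in intron 5 (chr4:10091717-10093410) and no lost region. It was the gene of the 41 with a gain at the gene and no loss there. Together with MYLK, MYH9 and CORO1C had regions of both kinds, so that both occurred in 3 of the 41 genes (7.32%), against 1.08% of other genes.

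The other 6 general genes had no region at the gene: ACTB, MYH10 (a second heavy chain of non-muscle myosin II), CNN3 (calponin 3), TPM3 (a tropomyosin), and the filament-severing proteins DSTN and CFL1 (destrin and cofilin).

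Among the 8 adhesion, LIM-domain and early response genes, 5 had lost regions (62.5%) and no gained region lay at any. ZYX, zyxin of focal adhesions and stress fibres, had 1 of 2594 bp over its start (chr7:143379734-143382327). FHL2, a LIM-only cofactor, had 4. A lost region lay at each of 2 start areas 39462 bp apart (chr2:105438076-105438504 and chr2:105398423-105399490), and 2 abutting ones formed a block of 4000 bp in intron 3 (chr2:105374676-105378675). FHL3, its relative, had 1 in intron 1 (chr1:37998814-38001801) that also covered an internal transcript start. PDLIM7, a PDZ and LIM protein of actin filaments, had a lost block of 3463 bp over its start (chr5:177494264-177497726). EGR1, an immediate early transcription factor, had 1 lost region of 2098 bp over its start (chr5:138463414-138465511), with 5 CArG boxes, more than any other region of the set. VCL (vinculin), TGFB1I1 (Hic-5) and PDLIM5 had no listed region at the gene or within 100 kb.

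Smooth-muscle and general actin genes had nearly the same share of genes with a loss (8 of 13 and 10 of 17). They differed more at the 5′ end and the canonical start. At the 5′ end, losses were found in 6 of 13 smooth-muscle genes (46.2%) and 3 of 17 general genes (17.6%), and at the canonical start in 7 of 13 (53.8%) and 5 of 17 (29.4%). When any annotated transcript start was taken, the general genes ACTN1, LIMA1 and MYH9 also had a loss within 2500 bp of one. SYNPO2, the remaining smooth-muscle gene with a loss, did not. The difference in place thus depended on the start used and was smaller over all annotated starts. Smooth-muscle genes held 25 lost and 2 gained regions, general genes 16 lost and 5 gained. With 1 gene in one group and 3 in the other, gains at the gene were few in both. The difference between the groups was not tested, since the genes were chosen with earlier results known, and MYLK alone gave 10 of the 25 lost regions.

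**Figure D3:**
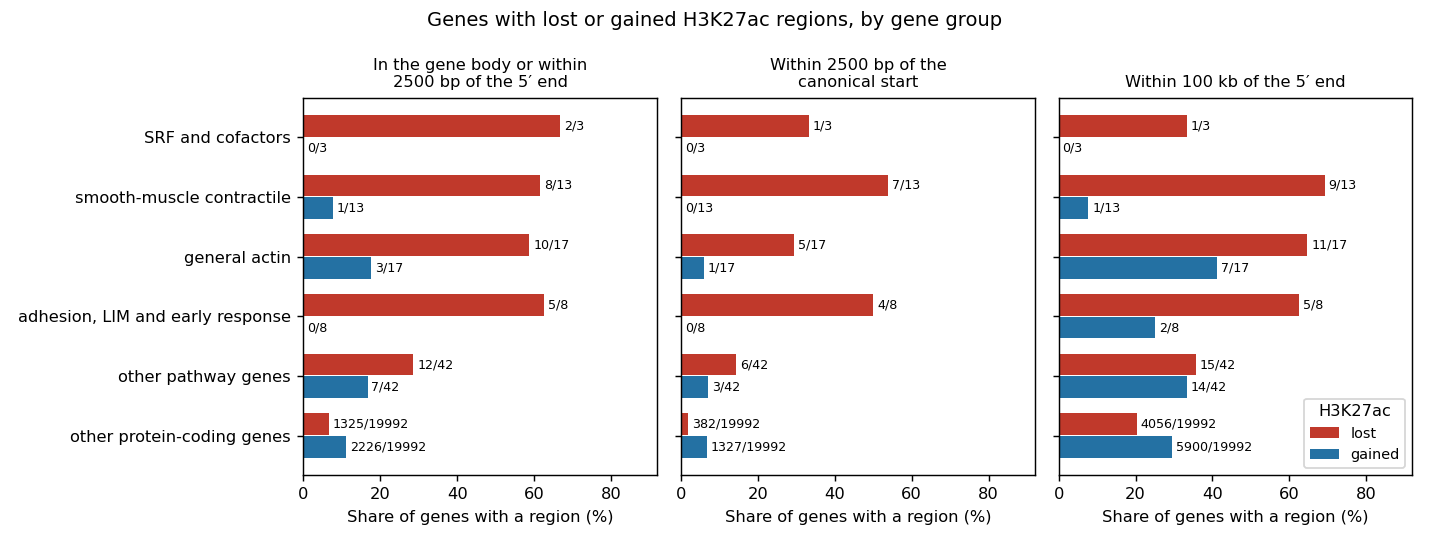
Share of genes (%) with a lost (red) or gained (blue) region for 4 groups of the 41 genes, for 42 other pathway genes and for the other protein-coding genes, at the gene (left), at the canonical start (middle) and within 100 kb of the 5′ end (right), with counts beside the bars. The red bars of the smooth-muscle, general actin and adhesion groups stand at 58.8% to 62.5% at the gene, against 6.63% of the other protein-coding genes.

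The bars of shares by gene group put these counts side by side, and the 3 SRF genes there are too few for a share to be read. Within 100 kb of the 5′ end, lost regions were found for 26 of the 41 genes (63.4%, against 20.3% of other protein-coding genes) and gained regions for 10 (24.4%, against 29.5%). The smooth-muscle group had 9 of 13 genes with a loss (69.2%) and 1 with a gain (7.69%). The general group had 11 of 17 with a loss (64.7%) and 7 with a gain (41.2%). Of the 69 lost regions in these windows, 41 had one of the 41 genes as the nearest protein-coding 5′ end, as had 5 of the 19 gained regions. Close to the 100 kb limit, on its inner side, lay a lost region of ACTG1 at 99509 bp and a gained region of CFL1 at 99022 bp, and beyond it lay, among others, a gained region 111 kb from ACTG2, a lost region 116 kb from WDR1, and lost regions in the gene bodies of MYLK at 121508 bp and MRTFA at 125790 bp. There were 10 genes with no listed region at the gene or within 100 kb (24.4%, against 55.3% of other genes): MRTFB, ACTG2, MYH11, CNN1, SMTN, ACTB, DSTN, VCL, TGFB1I1 and PDLIM5.

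Gene length and neighbourhood change the background but were not tested. The 41 genes had a median length of 39.3 kb. Of the 21 genes up to that length, 13 had a lost region (61.9%), against 3.22% of other protein-coding genes in the same range, and of the 20 longer genes 12 had one (60.0%), against 11.7%. For gains the shares were 0 of 21 against 7.20%, and 4 of 20 (20.0%) against 1366 of 8054 other genes, a similar share. Among genes with any listed region within 100 kb, 24 of 30 of the set had a loss at the gene (80.0%, against 13.4%) and 4 had a gain (13.3%, against 24.0%).

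Within these genes, most lost regions were intronic. The rule that placed regions at a gene takes in the gene body and leaves out distant intergenic regions, which favours introns. No shares of these places at other genes are given. The centre lay in an intron of the canonical transcript in 40 of the 54, of which 21 were in intron 1, in an exon in 3, and upstream of the canonical start in 11. A transcript start of the gene was covered by 23 of the 54, and 34 lay within 2500 bp of such a start. For 44 of the 54, the gene itself had the nearest protein-coding 5′ end. The rest were nearer to the 5′ end of another gene, among them the only lost region of ACTA2 and both of LIMA1. All 7 gained regions had their centre in an intron, and 1 of them covered a transcript start. The 18 lost regions near 5′ ends had a median GC content of 61.5% (45.1% to 68.9%), and the other 36 had a median of 46.2% (31.9% to 71.4%). Lost regions at these genes had a median width of 2000 bp (217 to 3523 bp), close to the 1905 bp of all lost regions.

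Motifs were counted in the central 1000 bp of each region, on both strands, which reaches past the edges of narrower regions. A CArG box was found in 14 of the 54 lost regions at these genes (25.9%) and in 325 of the 3442 other lost regions searched (9.44%). Gained regions had a match in 1 of 7 at these genes and in 4.34% elsewhere. The lost regions of smooth-muscle genes (5 of 25, 20.0%) and of general genes (4 of 16, 25.0%) had similar shares. The region over the EGR1 start is not among the matches, because its 5 CArG boxes lie outside the central window, and over whole regions the shares were 33.3% and 14.4%.

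The CArG box was not in the lost regions of every gene, since 9 of the 25 genes with a lost region had no match in any of theirs: MYLK, TPM1, TAGLN2, TPM4, ACTN1, CORO1C, ZYX, FHL3 and PDLIM7. The core of the TEAD site, CATTCC, the DNA letters bound by the partners of YAP1, was in 36 of the 54 (66.7%), and in 60.5% of other lost regions and 45.8% of other gained regions. The AP-1 site, TGACTCA or TGAGTCA, which are the same site read on opposite strands, was in 12 of the 54 (22.2%), below the 32.1% of other lost and 33.0% of other gained regions. A match is a description of the letters and does not show that a factor was bound there.

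**Figure D4:**
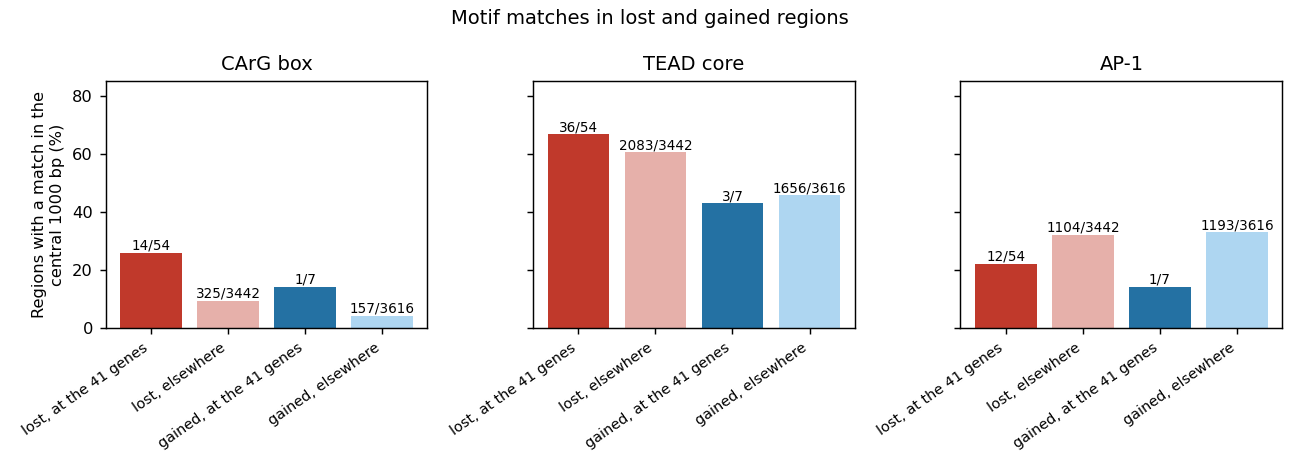
Share of regions (%) with a CArG box, a TEAD core or an AP-1 site in the central 1000 bp, for lost and gained regions at the 41 genes (dark) and elsewhere (light), with counts above the bars. The CArG bar of lost regions at the 41 genes stands at 25.9% against 9.44% elsewhere, while the TEAD bars of lost regions stand at 66.7% and 60.5%.

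As the bars of motif matches show, the CArG share of lost regions was higher at the 41 genes than elsewhere. The TEAD shares of lost regions lay closer together, and neither difference was tested. The 41 genes were listed for their link to SRF, which binds the CArG box, so their higher CArG share is not independent support. The gained bars at the 41 genes rest on 7 regions.

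RefSeq promoter windows of 300 bases, from 250 before to 50 after a start, were matched by symbol for 37 of the 41 genes, with 71 windows in all. No window was matched for ACTB, MYL9, MYH11 and TAGLN. A CArG box was present in 13 of the 71 (18.3%), against 1.29% of all 35116 windows. The list was made of genes linked to SRF, so this share is not independent of how they were chosen. The TEAD core was in 15 of the 71 (21.1%) and in 4928 of all windows, and the AP-1 site in 4.23% against 4.95%. Lost regions overlapped 16 of the 71 windows and gained regions 0. The share of all windows with such an overlap is not given, so these counts cannot be read as high or low. A gene with several starts has several windows, so the windows are not independent. Of the 13 windows with a CArG box, 6 overlapped a lost region, at SRF, CNN2, EGR1 and 3 windows of FHL2. Of the FHL2 windows, 2 overlap each other almost wholly at the 5′ end, where the lost region itself holds no CArG box. The other 7 overlapped no listed region: ACTG2, SMTN and TGFB1I1, genes with no listed region at all, the downstream start of MYLK (chr3:123620499-123620798), and starts of ACTN1, ACTG1 and TPM4, whose lost regions lay elsewhere in the gene. Thus a CArG box in the promoter window occurred both with and without a listed loss.

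A wider list of 42 genes of the same pathway (among them ternary complex factors, profilins, further LIM proteins and early response genes) was counted in the same way. Lost regions lay at 12 of them (28.6%, against 6.63% of the other protein-coding genes). Gained regions lay at 7 (16.7%, against 11.1%). The share with a loss was thus smaller than in the 41 but still above that of other genes, and the share with a gain was larger than in the 41. PPP1R12B, a regulatory subunit of the phosphatase that reverses MYLK, had 5 lost regions, near the 3′ end of its 244 kb gene.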

How the data were processed

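LX-2 cells were treated with vehicle or OGTi, and H3K27ac was profiled with 4 replicates in each arm. According to the methods, the authors aligned reads to hg38 with Chromap, called peaks against input DNA with MACS2 (2.1.1.20160309), removing duplicates and blacklisted regions, and tested the 8 libraries together with MAnorm2. The submitters' processing notes also name deepTools 2.0. The 2 deposited lists hold 3 columns (chromosome, start and end) and no signal, p-value or replicate value, so the read depth is unknown and no unit other than position in base pairs was used. The lists carry an adjusted p threshold of 0.15 in their names, and the methods text gives a stricter one.

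Starts were converted to count from 1. Genes came from GENCODE release 44 (62663 genes), later than the release of the study. The distance of a region was taken to its nearest base. The 41 genes, their 4 groups and the 42 pathway genes were chosen with earlier results of these data known, so no test was made: counts stand beside the share of the 19992 other protein-coding genes. Every gene of the 41 is named, and pathway genes with 3 or more regions, except an item that is not reported here. Sequences were read from hg38 with pysam 0.24.0 under Python 3.11.15, promoter windows from RefSeq (GRCh38.p14), and 11 lost regions outside the chromosomes were left out of the motif search. Figures were drawn with matplotlib 3.10.9. The counting was tested on simulated data. Alternatives were other windows and starts, regions nearest to the gene, and joined regions; the canonical start was chosen after seeing the data.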

Additional observations from a re-analysis of the deposited data

How the results depend on the processing

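No paired analysis was possible because no value per replicate is given in either list, and for the same reason leaving out replicates and a stricter threshold were not run. Of 66 alternative values, 48 stayed within 1.5 times the reported value, 18 moved further and 0 reversed. With the 2500 bp window alone, without the gene body, genes with a loss fell to 14 of the 41 and to 3 of the 17 general actin genes, and genes with a gain to 1 of the 41, 0 smooth-muscle and 1 general gene. Of the other protein-coding genes, 1.89% then had a loss and 6.40% a gain. At the canonical start alone, a choice made after seeing the data, 5 general genes had a loss, and gains were 1 of the 41, 0 smooth-muscle and 1 general. The other protein-coding genes had a loss there in 1.91% and a gain in 6.64%. Counting only regions nearest to the gene left 23 of the 41 with a loss (56.1%, against 4.71% of other genes). It left 3 with a gain (7.32%, against 8.24%), and 0 smooth-muscle genes with a gain. Genes of the 41 with a gain within 100 kb became 6 within 50 kb (14.6%, against 18.7% of other genes). They became 26 within 250 kb (63.4%, against 51.6%) and 3 when only nearest regions counted (7.32%, against 10.2%). With whole sequences searched and abutting regions joined, a CArG box was in 18 of 42 lost blocks (42.9%), against 15.9% of other lost blocks, and without joining in 18 of 54 whole regions (33.3%). Background shares rose among longer genes and genes near any region (losses 11.7% and 13.4%; gains 1366 of 8054 longer genes and 24.0% near any region). The depth behind each region is unknown.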

Other observations

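Some regions within 100 kb of these genes lay nearer to the start of another gene. Upstream of MYH9 there were 7 lost regions 44.2 to 79.0 kb from its 5′ end, of which 4 abutted to form chr22:36461120-36468780 (7661 bp), and 6 of the 7 were nearer to TXN2. ACTG1 had 3 lost regions 41.4 to 52.1 kb upstream, 2 of them abutting (chr17:81565244-81568856, 3613 bp), all nearer to FAAP100, and 1 at 99.5 kb downstream that was nearer to BAHCC1. A lost region 23.3 kb downstream was nearest to ACTG1 itself. LMOD1 had 3 lost regions upstream of its start, from 60.7 to 87.8 kb away, and all were nearer to ELF3.

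CFL1, cofilin, was the gene of the 41 with the most gained regions within 100 kb. It had 6, all upstream, and the nearest 3 formed chr11:65887626-65892779 (5154 bp), 25.6 kb away. The nearest genes were FIBP, CCDC85B, FOSL1, C11orf68 and SART1, and no lost region was within 100 kb of CFL1. TPM3 had 2 gained regions, 25.3 and 78.0 kb upstream, nearest to C1orf43 and HAX1. Which gene any of these regions acts on was not measured.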
